A study of Mus musculus with 14 samples.

Results

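Matrix metalloproteinases (Mmp), their tissue inhibitors (Timp), the disintegrin metalloproteinases (Adam and Adamts) and the cathepsins (Cts) were compared in mouse mammary tumors and mammary gland. The members were every probe set whose platform gene symbol was Mmp, Timp, Adam or Adamts followed by a number, or Cts followed by 1 letter. This gave 63 of the 12488 probe sets on the array, for 46 of the 8252 named genes. They comprised 16 probe sets of 13 Mmp genes, 6 of 3 Timp genes, 21 of 17 Adam and Adamts genes and 20 of 13 cathepsin genes. A further 2 probe sets, shared by an Adam gene and another gene, were left out. A probe set was taken as expressed and tested when it exceeded the 40th percentile of its array on at least 3 of the 14 arrays, and 39 probe sets of 33 genes did so.

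The 14 arrays fall into 4 groups. Tumors of MMTV-neu transgenic mice, in which the mouse mammary tumor virus promoter drives the neu oncogene in mammary epithelium, were measured on 5 arrays (numbered 22, 24, 26, 50 and 52). A second group of MMTV-neu tumors, called set B, was measured on 2 arrays (80 and 81) to see whether the changes seen first would recur. Gland of MMTV-neu mice that surrounded a tumor, termed preneoplastic in the labels, was measured on 4 arrays (23, 25, 49 and 51). Age-matched wild-type mammary gland was measured on 3 arrays, each a pool of RNA from 5 mice. Wild-type pool 40 came from mice of 31 weeks (87.5% FVB, the rest CF-1) and pools 41 and 42 from mice of 41 weeks (97% FVB, the rest CF-1). Strain and age of the tumor-bearing mice, and whether each tumor and each adjacent gland came from its own mouse, are not given in the sources used here. The p-values therefore measure only the spread between these samples, which may be technical.

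Matrix metalloproteinases are zinc-dependent enzymes that cut collagens, laminins, proteoglycans and many growth factors outside the cell, and TIMPs bind their active sites and block them. ADAMs are membrane-anchored relatives that release the outer parts of surface proteins such as growth factor precursors and Notch, while ADAMTS enzymes are secreted. Cathepsins are mostly cysteine or aspartic proteases of the lysosome. In the mammary gland much of the matrix-degrading activity is made by stromal cells, and it takes part in ductal branching and in the remodelling after lactation.

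Values are the deposited intensities, on a linear scale, 1 per probe set and array. The mean of each array after trimming 2% of values from each end was 1500.67 to 1500.9, and the medians were 544 to 784. Values under a floor of 101 were set to it before taking log2, so that differences against floored values are understated. Array lots, as numbered in the labels, were in part shared with the groups. Tumors 22, 24 and 26 and adjacent glands 23 and 25 were in lot 2001815, adjacent glands 49 and 51 and wild-type pool 40 in lot 2004907, tumors 50 and 52 in lot 2004097, set B in lot 2006609, and wild-type pools 41 and 42 in lot 2003877. The log2 ratio of 3′ to 5′ actin probe sets, a sign of RNA length, was 0.08 to 0.76 in tumors, 0.14 to 0.21 in set B, 0.38 to 1.52 in adjacent gland and 0.90 to 1.51 in wild-type gland. That of Gapdh was -0.25 to 0.43 in tumors, -0.50 to -0.28 in set B, -0.27 to 0.27 in adjacent gland and 0.11 to 1.48 in wild-type gland. As numbered, no lot held both tumor and wild-type arrays. A fit with lot as a fixed block therefore joined tumors minus adjacent gland within lot 2001815 to adjacent gland minus wild-type pool 40 within lot 2004907. Tumors 50 and 52 and wild-type pools 41 and 42 did not add to that difference. The difference of tumors from adjacent gland in that fit came from lot 2001815 alone. The part of lot and of RNA quality in the results below was not tested except where values within lots are given.

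The 5′ flanks of 8 genes are shown first. Mmp3, Timp3, Adam15, Ctsc and Ctsk were called in every comparison of tumors with gland, and Mmp10, Mmp12 and Mmp13 lie with Mmp3 in a run of Mmp genes on chromosome 9 and were chosen because they hold the same element. Sequences are from RefSeq (build GRCm38.p6), which held a promoter for 29 of the 46 member genes. Each is the 250 bases before the annotated start, 5′ to 3′ on the gene's strand. Capitals mark the AP-1 element (TGAGTCA, or TGACTCA on the other strand) in the Mmp genes and the GC box (GGGCGG, or CCGCCC on the other strand) in Timp3, Adam15 and Ctsc. Ctsk has neither.
Mmp3 (chr9:7445572-7445821, plus strand): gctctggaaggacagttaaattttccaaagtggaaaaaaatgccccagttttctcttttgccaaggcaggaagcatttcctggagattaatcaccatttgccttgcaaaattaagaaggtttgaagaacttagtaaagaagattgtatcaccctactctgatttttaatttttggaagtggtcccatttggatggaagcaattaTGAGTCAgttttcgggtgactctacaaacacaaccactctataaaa
Mmp13 (chr9:7272264-7272513, plus strand): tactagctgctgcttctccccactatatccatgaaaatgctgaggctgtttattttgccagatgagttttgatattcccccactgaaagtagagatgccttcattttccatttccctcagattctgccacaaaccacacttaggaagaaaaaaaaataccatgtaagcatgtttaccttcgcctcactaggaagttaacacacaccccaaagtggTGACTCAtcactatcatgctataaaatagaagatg
Mmp10 (chr9:7502092-7502341, plus strand): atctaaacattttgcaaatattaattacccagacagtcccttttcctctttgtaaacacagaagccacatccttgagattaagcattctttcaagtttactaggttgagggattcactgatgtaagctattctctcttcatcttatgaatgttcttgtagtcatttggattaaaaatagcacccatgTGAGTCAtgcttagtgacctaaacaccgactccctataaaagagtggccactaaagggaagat
Mmp12, second annotated start (chr9:7347124-7347373, plus strand): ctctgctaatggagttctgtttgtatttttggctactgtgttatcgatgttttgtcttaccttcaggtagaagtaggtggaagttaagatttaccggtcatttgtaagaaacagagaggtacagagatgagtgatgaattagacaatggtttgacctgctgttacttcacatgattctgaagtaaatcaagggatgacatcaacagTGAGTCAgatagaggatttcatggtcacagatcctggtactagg
Timp3 (chr10:86300162-86300411, plus strand): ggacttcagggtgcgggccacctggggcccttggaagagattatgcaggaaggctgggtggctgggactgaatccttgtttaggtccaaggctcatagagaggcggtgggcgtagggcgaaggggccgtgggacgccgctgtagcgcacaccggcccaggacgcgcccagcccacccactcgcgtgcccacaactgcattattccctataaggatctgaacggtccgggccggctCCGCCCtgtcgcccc
Adam15 (chr3:89350029-89350278, minus strand): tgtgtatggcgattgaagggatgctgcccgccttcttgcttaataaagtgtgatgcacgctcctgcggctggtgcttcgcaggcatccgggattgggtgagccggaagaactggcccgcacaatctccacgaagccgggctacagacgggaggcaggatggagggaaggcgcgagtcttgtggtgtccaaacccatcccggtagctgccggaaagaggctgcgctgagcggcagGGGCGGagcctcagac
Ctsc (chr7:88277835-88278084, plus strand): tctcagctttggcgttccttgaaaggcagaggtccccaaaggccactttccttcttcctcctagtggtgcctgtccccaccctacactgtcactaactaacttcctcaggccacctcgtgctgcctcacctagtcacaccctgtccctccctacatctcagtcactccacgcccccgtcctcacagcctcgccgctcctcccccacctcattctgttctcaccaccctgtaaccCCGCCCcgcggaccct
Ctsk (chr3:95498960-95499209, plus strand): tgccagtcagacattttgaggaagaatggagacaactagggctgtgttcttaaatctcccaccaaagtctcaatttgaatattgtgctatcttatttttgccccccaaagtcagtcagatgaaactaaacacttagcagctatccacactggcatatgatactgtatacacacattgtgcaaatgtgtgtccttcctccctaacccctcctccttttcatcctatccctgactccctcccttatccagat
The AP-1 element lay 46 bases before the start in Mmp3, 35 in Mmp13, 63 in Mmp10 and 44 in Mmp12, and the first annotated start of Mmp12 and the start of Mmp8, also of that run, had none. Over all members with a promoter, 6 of 34 distinct promoters held AP-1 (Adam19, Mmp3, Mmp7, Mmp10, Mmp12 and Mmp13) and 16 held a GC box. Of 32536 distinct promoters of the same length in the table, 4.45% held AP-1 and 33% a GC box. These matches are a description of the letters and not of binding.

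In tumors against wild-type gland, the protease families moved in both directions. Mmp3, Mmp9, Timp3, Adam15, Adam19, Ctsb and Ctsk fell, while Mmp16, Ctsc, Ctsh and Ctss rose. By limma with Benjamini-Hochberg adjustment, 4 of the 39 tested member probe sets were higher and 9 lower in tumors, which is 33.3% of members against 29.9% of all 8616 probe sets tested (15.8% higher and 14.1% lower). The share of members called was thus close to the background. The median log2 difference was -0.30 over the members and 0.16 over all tested probe sets. By family, 1 of 9 Mmp probe sets rose and 2 fell, 0 of 3 Timp probe sets rose and 1 fell, 0 of 12 Adam probe sets rose and 2 fell, and 3 of 15 cathepsin probe sets rose and 4 fell. The tumor and wild-type arrays did not overlap in the 13 called probe sets, which the call itself favors. In Mmp9 and Mmp16 the expression filter favors it too, as the group at the floor could not help them pass it. The arrays did not overlap in Mmp13 and Ctsl either, which were not called. The share without overlap over all probe sets was not counted.

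**Figure D1:**
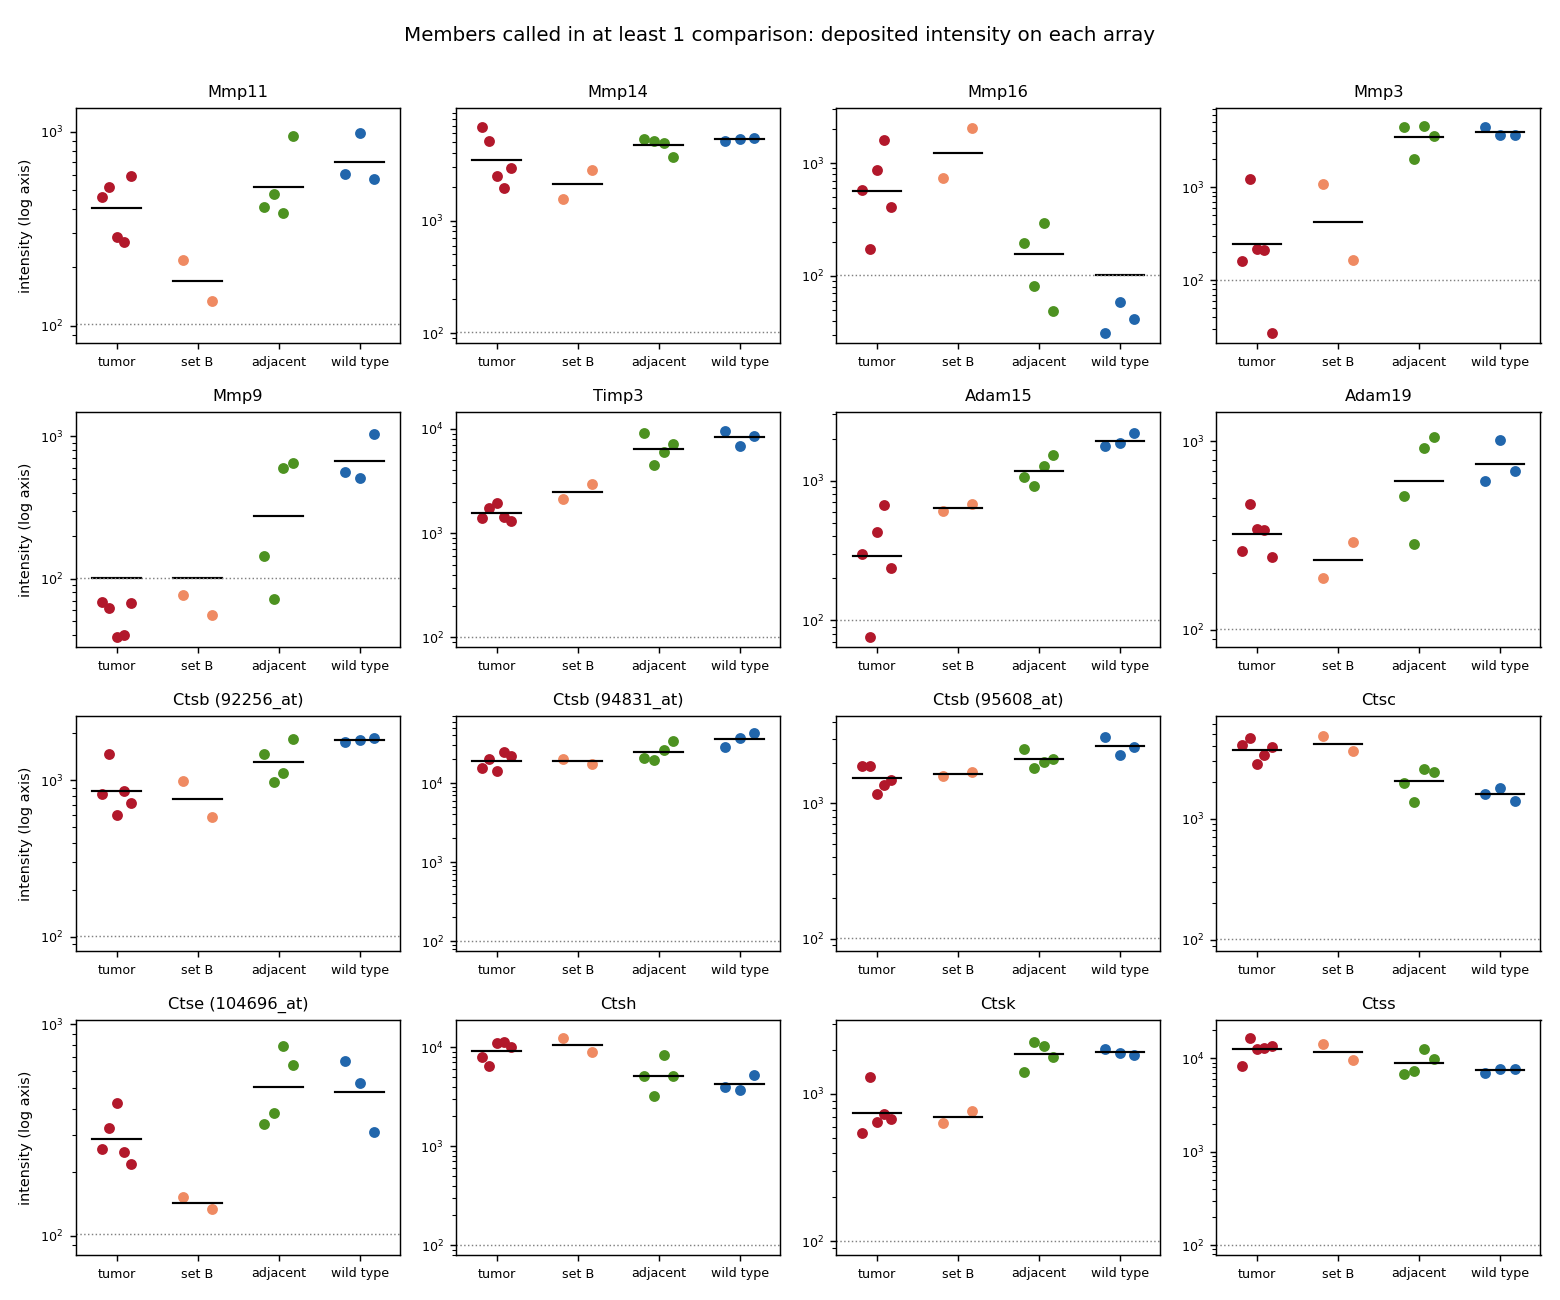
Deposited intensity (log axis) of each member called in at least 1 comparison, with 1 point per array for 5 tumors, 2 set B tumors, 4 adjacent glands and 3 wild-type pools; the black line is the mean of the log2 values after the floor and the dotted line the floor of 101. Timp3 lay between 1319 and 2950 on the 7 tumor and set B arrays and between 4522 and 9613 on the 7 gland arrays.

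Among the inhibitors, Timp3 had the smallest adjusted p of any member. Timp3 encodes the TIMP that binds to the extracellular matrix and also inhibits several ADAMs. Its intensity was 1389, 1750, 1945, 1434 and 1319 in tumors 22, 24, 26, 50 and 52, 2126 and 2950 in set B tumors 80 and 81, 9188, 4522, 5948 and 7150 in adjacent glands 23, 25, 49 and 51, and 9613, 6923 and 8570 in wild-type pools 40, 41 and 42. Every tumor array was below every gland array, and the adjacent and wild-type arrays overlapped. Timp3 averaged 1567 ± 268 in tumors (SD, n = 5) and 8369 ± 1356 in wild-type gland (SD, n = 3). It was 5.35-fold lower in tumors (log2 -2.42 ± 0.23 SE, adjusted p = 1.09e-06). The call held under all 26 alternatives, and with the array lot as a fixed block the difference was -2.50.

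Timp1 and Timp2, the soluble TIMPs, did not pass the test. Timp1 was 3895, 5030, 5672, 4140 and 3058 in the tumors, 5893 and 2466 in set B, 3547, 5361, 3937 and 4756 in adjacent gland, and 2833, 2387 and 3502 in wild-type gland. Its 4 adjacent arrays all lay above the 3 wild-type arrays, while the tumors overlapped them. The log2 difference of tumors from wild-type gland was 0.57 ± 0.27 (adjusted p = 0.122). Timp2 was 511, 479, 699, 1467 and 398 in tumors, 727 and 1001 in set B, 987, 1241, 1382 and 2101 in adjacent gland, and 696, 1081 and 336 in wild-type gland. Tumor 50 was high among the tumors, and tumors overlapped wild-type gland (log2 -0.00 ± 0.43, adjusted p = 0.997). Timp1 and Timp2 each had further probe sets that were dim and untested, with medians of 103, 55.5 and 37.1 over the 14 arrays.

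Of the secreted metalloproteinases, Mmp3 had the largest log2 difference. Mmp3 (stromelysin-1) cuts proteoglycans, laminin and other proteases' precursors and is made mainly by fibroblasts. Its intensity was 162, 1216, 219, 214 and 27.1 in tumors 22, 24, 26, 50 and 52, 1081 and 166 in set B tumors 80 and 81, 4451, 2035, 4576 and 3555 in adjacent gland, and 4496, 3684 and 3674 in wild-type gland. All 7 tumors lay below all 7 glands. Tumor 24 and set B tumor 80 stood above the other tumors, and tumor 52 was at the floor. Mmp3 was 15.9-fold lower in tumors than in wild-type gland (log2 -3.99 ± 0.66, adjusted p = 0.000281). The difference was -3.26 with lot as a fixed block and no longer passed (adjusted p = 0.256).

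Mmp9 (gelatinase B), which cuts denatured collagen and type IV collagen and is known from neutrophils and macrophages, was at the floor in every tumor. The intensity was 68.4, 62.5, 38.9, 39.9 and 67.9 in tumors, 76.4 and 55.2 in set B, 143, 72.1, 602 and 650.4 in adjacent glands 23, 25, 49 and 51, and 559, 507 and 1043 in wild-type gland. Mmp9 was at least 6.57-fold lower in tumors than in wild-type gland (adjusted p = 0.00212). It passed the expression filter through gland arrays alone, so the filter favored its falls in tumors and in set B. The adjacent glands split by lot, with the pair of lot 2001815 low and the pair of lot 2004907 near the wild-type values. With lot as a fixed block the tumor difference was -0.09 (adjusted p = 0.98). Lots 2004097 and 2004907 may be 1 lot written in different ways, and taken as 1 they gave -1.81 (adjusted p = 0.188). Tumors 50 and 52 would then share a lot with adjacent glands 49 and 51 and wild-type pool 40, and lie below all 3. Its other probe set, dim and untested, had a median of 79.8.

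Mmp16 was the member Mmp that rose. Mmp16 (MT3-MMP) is a membrane-anchored enzyme that activates pro-Mmp2. Its intensity was 573, 173, 861, 1612 and 408 in tumors 22, 24, 26, 50 and 52, 731 and 2065 in set B, 196, 81.1, 294 and 48.6 in adjacent gland, and 31.2, 59 and 41.9 in wild-type gland. All wild-type pools were under the floor and every tumor above it. Mmp16 passed the expression filter through tumor arrays and not through wild-type pools. The filter therefore favored its differences between tumors and gland. Mmp16 was at least 5.54-fold higher in tumors than in wild-type gland (adjusted p = 0.00622), and the difference with lot as a fixed block was 2.41 (adjusted p = 0.406). Its substrate gene Mmp2, known mainly from fibroblasts, could not be compared, since its 2 probe sets were dim with medians of 147 and 48.7.

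Mmp13 (collagenase 3) narrowly missed the threshold. Its intensity was 361, 892, 198, 207 and 350 in tumors, 475 and 149 in set B, 199, 407, 180.5 and 194 in adjacent gland, and 146, 105 and 126 in wild-type gland. Each tumor lay above each wild-type pool (log2 1.45 ± 0.53, adjusted p = 0.0514). Mmp13 passed under quantile normalization (adjusted p = 0.0335) but not under median scaling or with lot as a fixed or random block. Mmp3 and Mmp13, of the same run on chromosome 9, both hold AP-1 in the sequences above. Their log2 differences had opposite signs, of which that of Mmp13 did not pass. Mmp12 (macrophage elastase), another gene of that run, had 2 tested probe sets with log2 differences of -0.59 ± 0.69 and -0.06 ± 0.71. The remaining members in the run, Mmp7, Mmp8 and Mmp10, were not expressed, with medians of 28.7, 49.9 and 14.6.

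Mmp14 (MT1-MMP, the main activator of pro-Mmp2), Mmp11 (stromelysin-3, a fibroblast product) and Mmp17 (MT4-MMP) did not pass in tumors against wild-type gland. Mmp14 was 6722, 5105, 2487, 1957 and 2926 in tumors, 1570.5 and 2793 in set B, 5319, 5138, 4923 and 3711 in adjacent gland, and 5081, 5332 and 5365 in wild-type gland. Tumors 22 and 24 were at the level of gland while the other 5 tumors were below it. The log2 difference of tumors from wild-type gland was -0.61 ± 0.33 (adjusted p = 0.178). Mmp11 was 459.7, 522, 285, 269 and 595 in tumors, 217 and 134 in set B, 412, 479, 383 and 948 in adjacent gland, and 609, 985 and 571 in wild-type gland. Its set B arrays were the lowest of all, and tumor 52 reached the wild-type range. Tumors differed from wild-type gland by -0.79 ± 0.39 in Mmp11 (adjusted p = 0.143) and by -0.38 ± 0.35 in Mmp17 (adjusted p = 0.437).

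**Figure D2:**
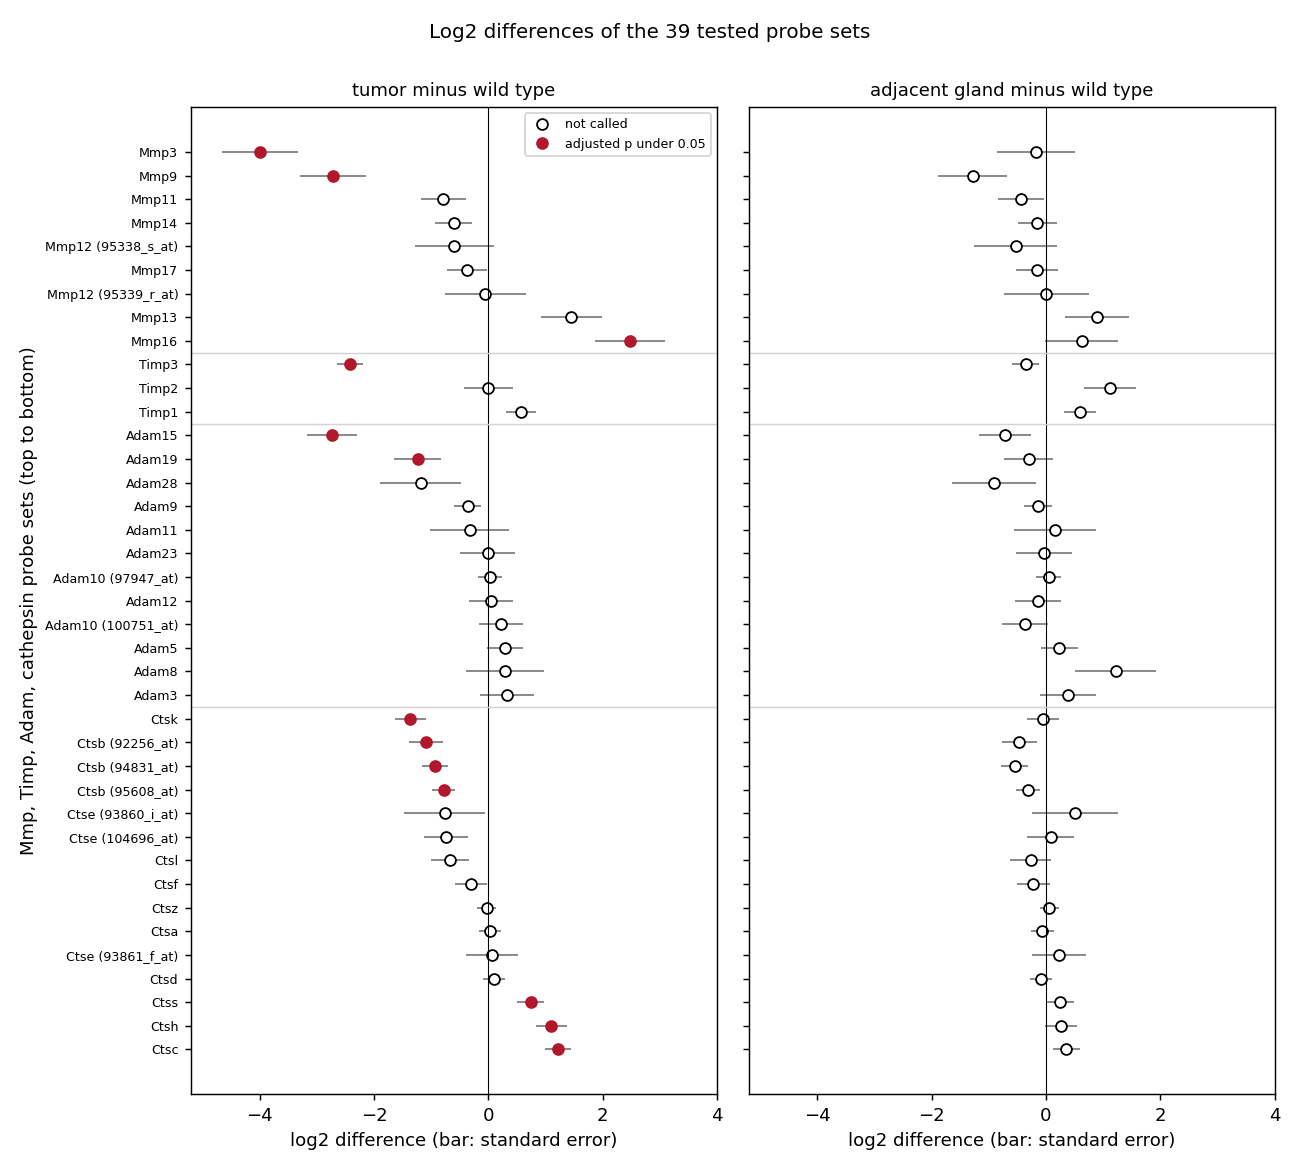
Log2 difference from wild-type gland (x axis, bars are standard errors) of each of the 39 tested probe sets, for tumors on the left and adjacent gland on the right; red points had an adjusted p under 0.05 in limma. In tumors 13 points are red, from -3.99 for Mmp3 to 2.47 for Mmp16, and in adjacent gland none is.

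Among the ADAMs, Adam15 and Adam19 fell. Adam15 (metargidin) is an active sheddase whose outer part binds integrins. Its intensity was 299, 76.1, 433, 668 and 238 in tumors, 612 and 677 in set B, 1063, 911, 1285 and 1518 in adjacent gland, and 1773, 1852 and 2184 in wild-type gland. The groups formed 3 separate ranges, with tumors and set B lowest, adjacent gland between and wild-type gland highest. Adam15 was 6.63-fold lower in tumors than in wild-type gland, with tumor 24 at the floor (log2 -2.73 ± 0.44, adjusted p = 0.000219). A fixed block for lot gave -2.40 (adjusted p = 0.185).

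Adam19 (meltrin beta), which can release neuregulin, was 263, 464, 343, 339 and 243 in tumors, 189 and 292 in set B, 512, 286, 924 and 1057 in adjacent gland, and 614, 1018 and 698 in wild-type gland. It was 2.36-fold lower in tumors than in wild-type gland (log2 -1.24 ± 0.41, adjusted p = 0.0323). The adjacent glands of lot 2001815 were low and those of lot 2004907 high. With lot as a fixed block the sign turned, to 0.55 (adjusted p = 0.77), and without tumor 22, tumor 52, wild-type pool 41 or wild-type pool 42 the call was lost (adjusted p up to 0.148).

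The main sheddases and the other expressed ADAMs did not pass in tumors against wild-type gland. Adam10, which cuts Notch and many growth factor precursors, differed by 0.03 ± 0.21 and 0.22 ± 0.38 at its 2 probe sets (adjusted p = 0.931 and 0.694). Adam9 (meltrin gamma) differed by -0.36 ± 0.23, Adam12 (meltrin alpha) by 0.05 ± 0.39 and Adam8, known from leukocytes, by 0.29 ± 0.68. Adam28, known from lymphocytes, ranged from 195 to 1359 in tumors and from 779 to 1191 in wild-type gland (log2 -1.19 ± 0.71, adjusted p = 0.222). Adam11 and Adam23, which lack a working protease site, differed by -0.33 ± 0.69 and -0.01 ± 0.47.

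Adam3 and Adam5, sperm surface proteins in mice, each had 1 tested probe set (161196_r_at and 162388_r_at), with log2 differences of 0.32 ± 0.47 and 0.29 ± 0.31. The other probe set of each was too dim to test, so no second measurement bears on these values. Adam17, which releases tumor necrosis factor and epidermal growth factor receptor ligands, did not pass the filter, with 41.6 to 729 and a median of 175. Adam2, Adam4 and Adam7, of the testis and epididymis, and Adam22 and Adamts1 did not pass it either. Their medians lay between 22.7 for a probe set of Adam2 and 230.0 for Adam7.

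The cathepsins divided by gene rather than moving together. Ctsk, a collagen-cutting enzyme known from osteoclasts and fibroblasts, was 546, 1301, 650.1, 736 and 681 in tumors, 632 and 772 in set B, 1404, 2266, 2102 and 1775 in adjacent gland, and 2029, 1899 and 1833 in wild-type gland. All tumors lay below all glands, with tumor 24 nearest to them. Ctsk was 2.57-fold lower in tumors than in wild-type gland (log2 -1.36 ± 0.26, adjusted p = 0.00105). It was -1.28 with lot as a fixed block (adjusted p = 0.294).

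Ctsb, a cysteine protease found in most cells, had 3 tested probe sets and fell at each. The brightest, 94831_at, was 15360, 20006, 14408, 24679 and 21835 in tumors, 20244 and 17497 in set B, 20871, 19683, 26183 and 33762 in adjacent gland, and 28924, 36726 and 43347 in wild-type gland. The tumors did not overlap the wild-type pools, and adjacent gland overlapped both. The falls in tumors against wild-type gland were 1.9-fold at 94831_at (adjusted p = 0.00581), 2.12-fold at 92256_at (adjusted p = 0.0113) and 1.72-fold at 95608_at (adjusted p = 0.00794). The last lost its call without wild-type pool 40 (adjusted p = 0.05003). The 3 differences with lot as a fixed block were -0.26, -0.70 and -0.99, none of them called. A further Ctsb probe set, 162271_f_at, was dim and untested, with a median of 146.55.

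Ctsc (dipeptidyl peptidase I), which activates the serine proteases of granulocytes, mast cells and cytotoxic lymphocytes, rose. Its intensity was 4009, 4588, 2824, 3354 and 3866 in tumors, 4805 and 3580.1 in set B, 1959, 1379, 2573 and 2417 in adjacent gland, and 1602, 1780 and 1393 in wild-type gland. All 7 tumors lay above all 7 glands. These values are of 101019_at. Its other probe sets, 101020_at and 161251_f_at, were dim and untested, with medians of 145.3 and 44.25, and tumors overlapped wild-type gland at both. Ctsc averaged 3728 ± 670 in tumors (SD, n = 5) and 1592 ± 194 in wild-type gland (SD, n = 3), a 2.32-fold rise (log2 1.22 ± 0.22, adjusted p = 0.000708). It was 1.82 with lot as a fixed block (adjusted p = 0.0355), and the call held under all 26 alternatives. Among granule proteases of those cells, the mast cell proteases Cma1 and Tpsb2 fell by 3.87 and 2.42 on the log2 scale. Elane of neutrophils (0.08 ± 0.27) and Gzmb of cytotoxic lymphocytes (0.68 ± 0.32) did not pass, and Ctsg was dim and untested, with a median of 39.1.

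Ctsh, a lysosomal aminopeptidase, was 8010, 6401, 11028, 11200 and 10062 in tumors, 12333 and 9005 in set B, 5103, 3186, 8239 and 5082 in adjacent gland, and 3960.1, 3714 and 5271 in wild-type gland. It was 2.14-fold higher in tumors than in wild-type gland (log2 1.10 ± 0.27, adjusted p = 0.00568). Ctss, which trims the invariant chain in antigen-presenting cells, was 8388, 16654, 12448, 13038 and 13476 in tumors, 14313 and 9680 in set B, 6774, 7349, 12548 and 9963 in adjacent gland, and 7034, 7772 and 7652 in wild-type gland. Each tumor exceeded each wild-type pool in both genes, while adjacent gland 49 was high in both. Ctss was 1.67-fold higher in tumors (log2 0.74 ± 0.24, adjusted p = 0.0267). The Ctss call was lost without tumor 24 or without any of the 3 wild-type pools (adjusted p up to 0.0869). Lot as a fixed block gave differences of 1.74 in Ctsh (adjusted p = 0.0848) and 1.44 in Ctss (adjusted p = 0.107).

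The remaining cathepsins did not pass in tumors against wild-type gland. Ctsl, a broad cysteine protease, was 4310, 5064, 3005, 6552 and 5695 in tumors, 12642 and 4077 in set B, 5217, 4273, 8829 and 7802 in adjacent gland, and 8604, 6756 and 7414 in wild-type gland. The 5 tumors lay below the 3 wild-type pools while set B tumor 80 lay above them (tumors minus wild type, log2 -0.67 ± 0.34, adjusted p = 0.149). Ctsd, the main aspartic protease of the lysosome, differed by 0.09 ± 0.19, Ctsa, which protects other lysosomal enzymes, by 0.02 ± 0.19, Ctsz by -0.03 ± 0.16 and Ctsf by -0.30 ± 0.28. Ctse, an aspartic protease outside the lysosome, had 3 tested probe sets. Their log2 differences were -0.74 ± 0.39 at 104696_at, -0.76 ± 0.71 at 93860_i_at and 0.07 ± 0.46 at 93861_f_at. Ctsw, of cytotoxic lymphocytes, was not expressed, with a median of 69.4.

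In adjacent gland against wild-type gland, no member was called by limma, against 1.17% of all probe sets (101 of 8616; 0.72% higher and 0.453% lower), so that 0 of 39 is near the background. At an unadjusted p under 0.05 there were 3 of 39 members, and 1273 of all 8616 probe sets: Timp1 (log2 0.60 ± 0.28, adjusted p = 0.336), Timp2 (1.12 ± 0.45, adjusted p = 0.257) and Ctsb at 94831_at (-0.55 ± 0.24, adjusted p = 0.298). The 2 inhibitors were higher and the cathepsin lower in adjacent gland. Timp3 differed by -0.36 ± 0.24 (adjusted p = 0.511), Mmp3 by -0.17 ± 0.69 (adjusted p = 0.932) and Adam15 by -0.72 ± 0.46 (adjusted p = 0.487). Within lot 2004907, which held 2 adjacent glands and 1 wild-type pool, the differences were 1.29 in Timp2, 0.61 in Timp1, -0.56 in Timp3 and -0.16 in Mmp3.

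Adam8 separated the adjacent from the wild-type arrays without passing the test. It was 117, 119, 615 and 366 in adjacent glands 23, 25, 49 and 51, and 47.1, 33.4 and 99.7 in wild-type gland. All wild-type pools were under the floor and all adjacent glands above it, by a margin that was small in lot 2001815 and larger in lot 2004907. No wild-type pool was bright enough to count toward the expression filter, so the filter favored this order. The log2 difference was 1.22 ± 0.71 (adjusted p = 0.447).

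In tumors against adjacent gland, 3 of 39 members rose and 4 fell by limma, which is 17.9% against 14.4% of all probe sets (5.34% higher and 9.04% lower). Mmp3 was 14.1-fold lower in tumors (adjusted p = 0.00042), Timp3 4.18-fold lower (adjusted p = 4.29e-06), Adam15 4.03-fold lower (adjusted p = 0.00268) and Ctsk 2.49-fold lower (adjusted p = 0.00139). Mmp16 was 3.6-fold higher, with adjacent glands 25 and 51 at the floor (adjusted p = 0.0363), Ctsc 1.82-fold higher (adjusted p = 0.00928) and Ctsh 1.79-fold higher (adjusted p = 0.0307). The tumor and adjacent arrays overlapped in Mmp16 and Ctsh and were apart in the others. Both comparisons share the tumor arrays, so that the same direction in each is not independent. The Ctsh call was lost without any of tumors 26, 50 and 52 or adjacent glands 23, 25 and 51 (adjusted p up to 0.0953). That of Mmp16 was lost without any of tumors 22, 26 and 50 or the same 3 adjacent glands (adjusted p up to 0.112).

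Lot 2001815 held 3 tumors and 2 adjacent glands and so allowed this comparison within a lot. There the log2 differences of tumors from adjacent gland were -3.10 in Mmp3, -1.94 in Timp3, -2.06 in Adam15, -1.21 in Ctsk, 1.64 in Mmp16, 1.18 in Ctsc and 1.04 in Ctsh. All 7 kept their direction, and Timp3 alone passed with these 5 arrays (adjusted p = 0.0447). With that lot left out, an alternative chosen after seeing the data, the 4 falls kept their call and the 3 rises lost it. The rises were then 0.53 in Ctsc (adjusted p = 0.199), 0.71 in Ctsh (adjusted p = 0.146) and 2.23 in Mmp16 (adjusted p = 0.0784).

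**Figure D3:**
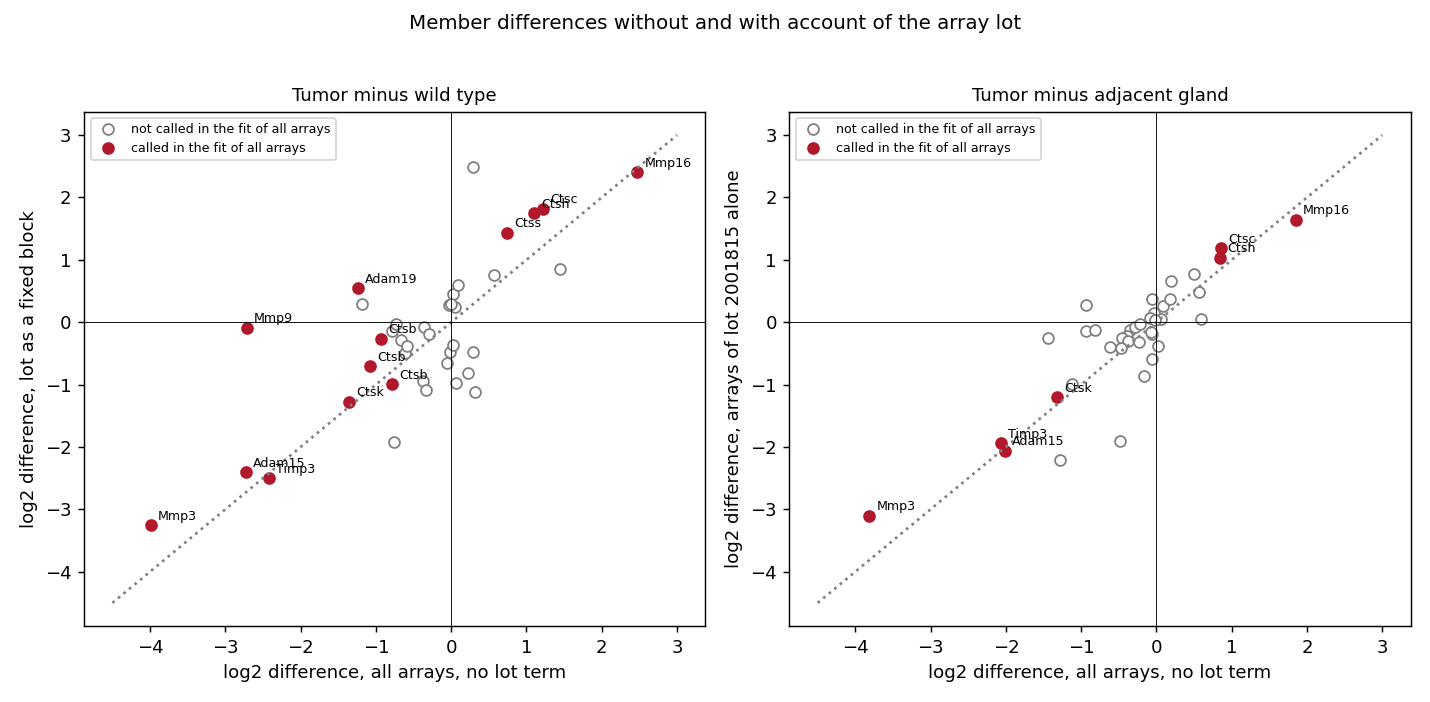
Log2 difference of each tested member without account of the array lot (x axis) against the value with it (y axis): tumors minus wild-type gland with lot as a fixed block on the left, tumors minus adjacent gland within lot 2001815 on the right; red points were called without a lot term and the dotted line marks equality. On the left Timp3 lies near the line at -2.50, Mmp9 moves to -0.09 and Adam19 crosses 0 to 0.55; on the right the 7 called members keep their sign.

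Set B tumors against wild-type gland gave 3 member probe sets higher and 11 lower by limma, 35.9% against 23.2% of all probe sets (11.2% higher and 12% lower). With 2 arrays in set B this comparison rests on few values, and the count was 6 without set B tumor 80, 5 without set B tumor 81 and 8 without wild-type pool 42. The comparison shares its wild-type pools with that of the first tumors. Timp3 was 3.31-fold lower in set B (adjusted p = 0.000411), Mmp3 9.28-fold lower (adjusted p = 0.0102), Ctsk 2.75-fold lower (adjusted p = 0.00468) and Adam15 3-fold lower (adjusted p = 0.0474). Ctsc was 2.62-fold higher (adjusted p = 0.00211), Ctsh 2.47-fold higher (adjusted p = 0.0102) and Mmp16 at least 12.1-fold higher (adjusted p = 0.00301). These 7 genes were called in set B and in both comparisons of the first tumors. How many of all probe sets were called in all 3 was not counted, so the 7 are not read as particular to the members. The first tumors against wild-type gland share arrays with each of the other 2 comparisons. The Mmp3 log2 difference was -1.86 without set B tumor 81 (adjusted p = 0.212) and -4.57 without set B tumor 80. That of Mmp16, computed against the floor, was 3.60 with both, 2.85 without set B tumor 81 (adjusted p = 0.0700) and 4.35 without set B tumor 80. The Adam15 call was lost in 10 of 14 fits that left out an array, and those of Ctsk and Ctsh were lost without set B tumor 80 (adjusted p = 0.0563 and 0.115). The calls of Timp3 and Ctsc held in all 14.

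Mmp11 and Mmp14, both known from stroma at the edge of carcinomas, were called in set B and not in the first tumors. Mmp11 was 4.1-fold lower in set B than in wild-type gland (adjusted p = 0.00675, and 0.0904 without set B tumor 81). Mmp14 was 2.51-fold lower (adjusted p = 0.0282), a call lost without set B tumor 80 or any wild-type pool (adjusted p up to 0.274). Ctse at 104696_at was 3.36-fold lower (adjusted p = 0.0155), while its other probe sets were not called. Mmp9 was at least 6.57-fold lower (adjusted p = 0.0125), Adam19 was 3.23-fold lower (adjusted p = 0.0254), and Ctsb fell at 92256_at and 94831_at (adjusted p = 0.0229 and 0.0261). The calls of Ctse, Mmp9, Adam19 and both Ctsb probe sets were lost without set B tumor 81, and all of them but that of Ctsb at 92256_at without set B tumor 80 (adjusted p up to 0.102 in Ctse, 0.0764 in Mmp9, 0.192 in Adam19, and 0.251 and 0.168 in Ctsb). Ctse was lost without wild-type pool 40 also, Mmp9 without pool 42, and Adam19 and Ctsb without pool 41 or 42.

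Set B and the first tumors were set against each other directly. No member passed by limma, as none of the 8616 probe sets did (0%), and at an unadjusted p under 0.05 there were 7 members and 932 probe sets in all. The smallest adjusted p among members were those of Adam5 (0.348), Adam23 (0.370) and Mmp11 (0.377). Timp3 was higher in set B by 0.69 on the log2 scale, without overlap (adjusted p = 0.395). A missed threshold with 2 set B arrays does not show that the tumor groups were alike.

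**Figure D4:**
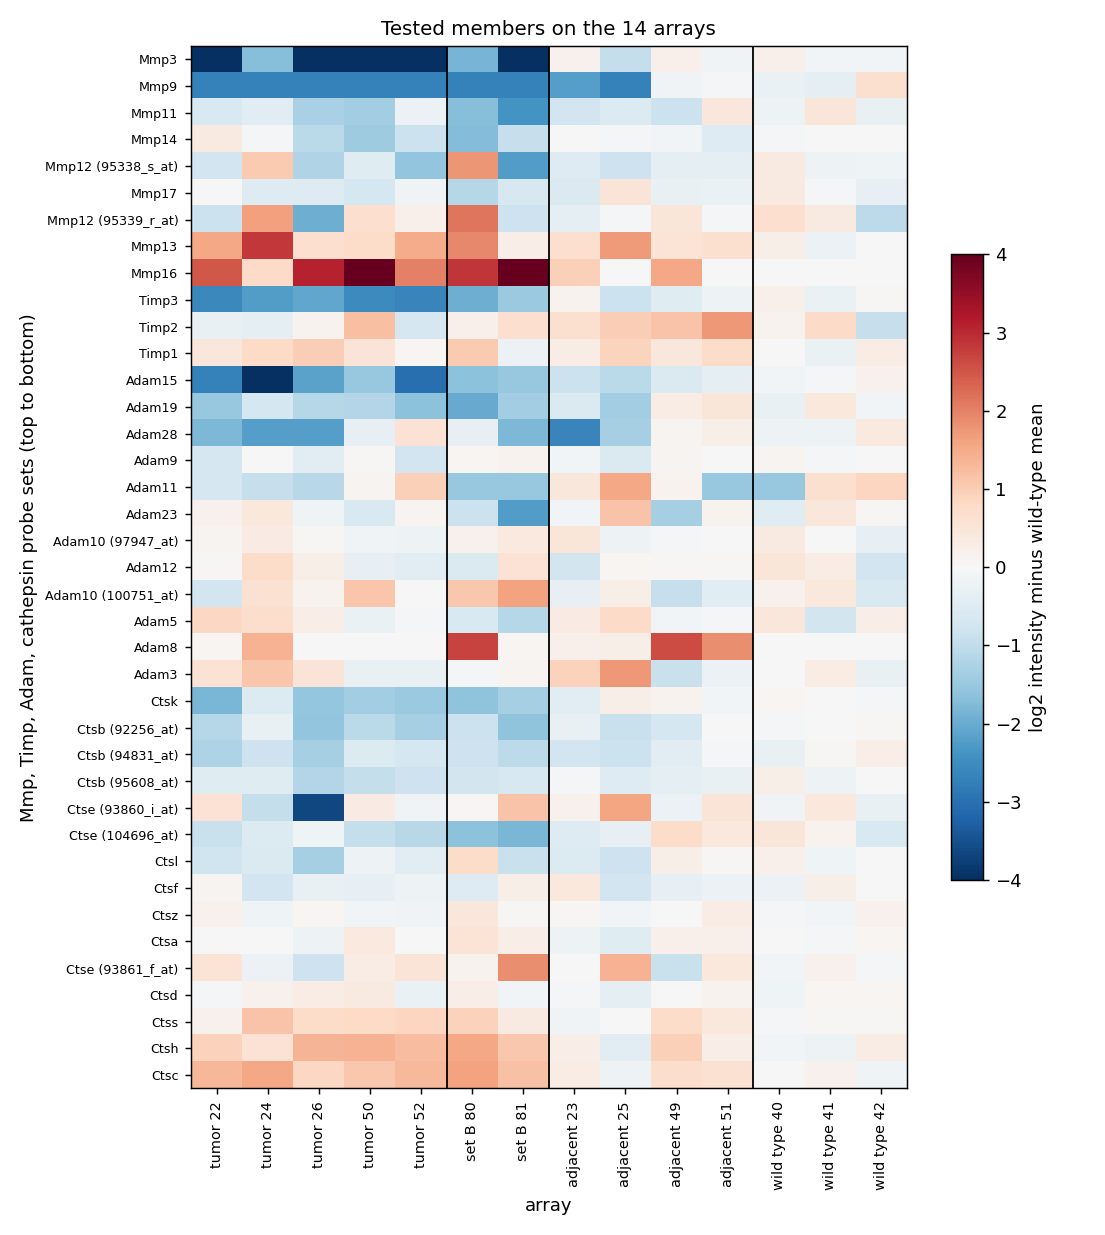
Log2 intensity of the 39 tested probe sets on each array minus the wild-type mean (color, from -4 in blue to 4 in red), with arrays ordered as tumors, set B tumors, adjacent glands and wild-type pools. Mmp3 and Timp3 are blue on the tumor and set B arrays, and tumor 24 and set B tumor 80 differ from the other tumors in Mmp3, Mmp12 and Adam8.

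Individual tumors differed among themselves in several secreted proteases and in Adam8. Tumor 24 and set B tumor 80 had the highest values of the 7 tumors in Mmp3, in both Mmp12 probe sets, in Mmp13 and in Adam8. Mmp12 at 95339_r_at was 769, 4322, 365, 2233 and 1628 in tumors 22, 24, 26, 50 and 52, 6189 and 783 in set B, 1078, 1366, 1951 and 1349 in adjacent gland, and 2252, 1796 and 677 in wild-type gland. Adam8 was 106, 265, 57, 77.6 and 93.1 in the tumors and 657 and 107 in set B. The summed intensity of 13 macrophage marker genes was 29067, 61687, 33327, 54218 and 41406 in those tumors and 63814 and 32055 in set B, so the same arrays were highest there. Tumor 24 was also the highest of the 7 in the summed fibroblast markers, with 38976 against 14306 to 23321 in the others, and in the neutrophil markers, with 138534. In the first tumors most of the neutrophil sum was Lcn2, which mammary epithelium also makes. Its geometric mean over those tumors was 81999, beside a median neutrophil sum of 95462. The sums and member intensities are values of single arrays, and the part of any of these cells in them was not tested.

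Marker lists of other cell types moved with the groups. All 11 expressed fibroblast markers fell in tumors against wild-type gland, and their summed intensity was 14306 to 38976 in tumors, 17152 to 21679 in set B, 106974 to 191505 in adjacent gland and 129270 to 160325 in wild-type gland. All 8 adipocyte markers and 6 of 8 endothelial markers fell too, as did the 3 expressed mast cell markers and 6 of 6 basal and myoepithelial markers, with Krt5 and Krt14 not expressed. Of 10 luminal epithelial markers 7 rose and 1 fell, with sums of 69018 to 108528 in tumors, 65322 to 88921 in set B, 45890 to 77209 in adjacent gland and 41511 to 43889 in wild-type gland. Of 8 skeletal muscle markers 6 fell and 1, Ckm, rose in tumors against wild-type gland, and 2 fell in adjacent gland against wild-type gland. Their sums were 4872 to 12859 in tumors, 4072 to 5180 in set B, 36953 and 44895 in adjacent glands 23 and 25, 4462 and 4296 in adjacent glands 49 and 51, and 60283 to 111748 in wild-type gland. The adjacent glands show the split by lot seen in Mmp9 and Adam19, there with the lower values in glands 23 and 25. Mmp3, Timp3 and Ctsk fell beside fibroblast markers, while the stromal genes Mmp11 (log2 -0.79) and Mmp14 (log2 -0.61) were not called. The part of cell makeup and tissue admixture in the members' values was not tested. In such bulk tissue fewer cells of a type and less RNA per cell cannot be told apart.

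The leukocyte markers were mixed. Of 13 expressed macrophage markers 2 rose (Fcgr1 and Cx3cr1) and 2 fell (Csf1r and Mrc1) in tumors against wild-type gland. Their sums were 29067 to 61687 in tumors, 32055 to 63814 in set B, 44259 to 75344 in adjacent gland and 47641 to 52474 in wild-type gland, so the groups overlapped. Of 6 expressed neutrophil markers 1 rose, Lcn2, which mammary epithelium also makes, and S100a9, Ngp and Mpo were not expressed. Of 7 B cell and antigen presentation markers 3 fell, and most markers of natural killer and cytotoxic T cells were not expressed. Ctss and Ctsc, genes of leukocytes among others, rose beside these values. Of the osteoclast markers Acp5 alone was expressed, and it fell by 1.99 on the log2 scale in tumors against wild-type gland.

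Genes that work with these proteases were read from lists. Of 5 expressed genes of the plasminogen system, whose product plasmin activates several Mmp precursors, 1 fell in tumors against wild-type gland and none rose. This was Plat, the tissue plasminogen activator, at -2.46 ± 0.39 (adjusted p = 0.000204), while Plau, the urokinase activator, differed by 0.53 ± 0.57 (adjusted p = 0.512). Of the 2 expressed cystatins, inhibitors of cysteine cathepsins, Cst3 fell by 1.10 on the log2 scale (adjusted p = 0.00397) and Cstb differed by 0.20 ± 0.18.

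Of 5 expressed genes listed as other metalloproteinase inhibitors, 1 rose and 3 fell in tumors against wild-type gland. A2m, a broad protease trap in plasma, rose by 3.75 ± 0.65 (adjusted p = 0.000417). Spock2, a secreted proteoglycan, was at -4.01 ± 0.54 (adjusted p = 4.55e-05) and Reck, a membrane inhibitor, at -0.81 ± 0.27 (adjusted p = 0.0347). Pcolce, at -1.83 ± 0.30 (adjusted p = 0.000294), enhances procollagen processing and is not an inhibitor. Timp3 thus fell beside Reck while A2m rose.

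Of 18 other expressed lysosomal genes, 3 fell and none rose in tumors against wild-type gland, with a median log2 difference of 0.04 against 0.16 over all probe sets. The 3 were Hexa (-1.35), a subunit of hexosaminidase, Lamp1 (-0.76), a membrane protein of lysosomes, and Npc2 (-0.77), a cholesterol carrier. Cathepsins changed in 7 of 15 probe sets, 3 of them of Ctsb, which is 5 of 11 genes. Of all 8616 probe sets tested, 29.9% were called in this comparison, and no test compared the lists. Of 6 expressed sheddase substrates and partners, 2 rose and 2 fell. The growth factor precursors Tgfa (2.49 ± 0.45, adjusted p = 0.000566) and Hbegf (1.44 ± 0.46, adjusted p = 0.0256) rose, and Timp3 itself and Pcsk6, a proprotein convertase, fell (Pcsk6 at -2.49 ± 0.54).

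Of 7 expressed astacins and membrane metalloproteinases, Cpd and Anpep rose by 2.09 and 1.24 on the log2 scale in tumors against wild-type gland and Ece1 fell by 1.74. Cpd is a carboxypeptidase of the secretory pathway, Anpep an aminopeptidase of the cell surface and Ece1 the endothelin converting enzyme. In adjacent gland against wild-type gland no gene of these 6 lists was called.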

How the data were processed

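Gene expression was measured in 14 samples, each on its own 1-color array. The table that the authors deposited gives the intensity of every probe set, unlogged. The program that made it was not given in the sources used here. The authors' deposited intensity values had nearly equal trimmed means, so they were not normalized again. Here, log2 was taken after a floor at 101.42, the 20th percentile of all deposited values. The 66 control probe sets and 3806 dim ones were left out. Genes were named through the platform annotation: 10855 probe sets had 1 gene, 396 several and 1237 none, and 10839 symbols were matched to a current table.

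The 4 groups were fitted together over all arrays with limma 3.58.1 in R 4.3.3 (lmFit, and eBayes with trend; 10 residual and 5.75 prior degrees of freedom). Two-sided p-values were adjusted by Benjamini and Hochberg over 8616 probe sets, and a call is an adjusted p under 0.05. Errors of log2 differences are standard errors. The number of arrays limits the precision. No 2 arrays held identical values, and correlations between arrays were 0.694 to 0.949. The procedure was tested on simulated data.

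The members and lists were chosen with earlier results of these data known. Values on every array were to be given for up to 6 members per family with the smallest p among those called, and for up to 2 where none was called; the arrays of Mmp12, Mmp13, Timp1, Timp2, Ctsl and Adam8 were added after their values were seen. Alternatives were the lot as a fixed or random block, values within a lot, other floors and filters, quantile and median scaling, no trend, only the groups compared, and each array left out. Leaving out lot 2001815 was added after seeing the data.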

Additional observations from a re-analysis of the deposited data

Results flagged for a closer look

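In 3 of 77 groups of member values, the highest or lowest array stood apart from the others of its group by Dixon's criterion, which chance alone meets in about 1 of 20 groups. Mmp13 was 407 in adjacent gland 25, the highest of the 4 adjacent arrays. Adam8 was 265 in tumor 24, the highest of the 5 tumors. Of these tumors 3 were set to the floor before the check, so the chance rate does not hold for this flag. Adam12 was 306 in adjacent gland 23, the lowest of the 4 adjacent arrays. None of these genes was called in the 5 comparisons as reported.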

How the results depend on the processing

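No paired analysis was possible because the sources used here do not say which tumors and adjacent glands came from the same mouse. Any such pairing is ignored in tumors against adjacent gland. Array lot was the choice that mattered most. In tumors against wild-type gland the 13 called probe sets became 2 with lot as a fixed block (Timp3 and Ctsc). That difference rests on lots 2001815 and 2004907 and on 1 wild-type pool. Lots 2004097 and 2004907, which may be 1 lot written in different ways, gave 6 when taken as 1. Over all 8616 probe sets tested the calls fell from 2574 to 360 and 921 in these 2 settings. Of the 13, 12 kept their direction under the fixed block, and Adam19 turned to 0.55; with lot as a random block 12 kept their call. Leaving out lot 2001815, chosen after seeing the data, kept 12. In tumors against adjacent gland the 7 became 4 with the fixed block and 1 within lot 2001815, and leaving out that lot kept 4, all of them falls. Over all probe sets tested the calls fell from 1239 to 597, 209 and 915 in these 3 settings. Set B was a lot of its own, so lot and group cannot be told apart there. Leaving out 1 array at a time gave 11 to 14 calls in tumors against wild-type gland, 5 to 8 in tumors against adjacent gland and 5 to 16 in set B against wild-type gland. The counts of 0 in the other comparisons did not change in any of these settings. Scaling moved the median over all probe sets in tumors against wild-type gland from 0.16 to 0.12 under quantile normalization and 0.09 under median scaling, and all 13 called members kept their direction under both. Over all single-member values and settings, 4784 kept their side of the threshold, 111 lost and 36 gained a call, and 1 called value reversed; uncalled values near 0 could change sign and were not counted as reversed. The cause of these changes was not tested. Depth of signal limits what could be read, since 24 of 63 member probe sets were too dim to test.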
